A study of Schizocosa ocreata with 10 samples.

Results

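Brains of immature males were set against brains of immature females of the wolf spider Schizocosa ocreata, to ask which genes differ between the sexes before the final molt. The comparison was defined by the sample labels and uses 5 of the 10 libraries of the series, from 3 immature males (replicates 1, 2 and 3) and 2 immature females (replicates 2 and 3). Each library holds poly(A) RNA from the dissected brain of a wild-caught subadult, the stage just before adulthood, kept alone in the laboratory for a few days. The other 5 libraries come from 3 mature females and 2 mature males, dissected 24 hours after the molt to maturity, and serve below to show whether a difference was also present in adults. The immature spiders spent a like time in captivity, but their age was not controlled, so their time to the molt is unknown and may differ between individuals. The esophagus runs through the spider brain and muscle surrounds it, so tissue of both can be in the samples.

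Spiders are arthropods that renew their cuticle at each molt under the control of ecdysteroid hormones, which act through nuclear receptors. Adult males of this genus court with leg movements and vibration, and females judge them largely by sight through several pairs of eyes. In the photoreceptors of arthropods, light is captured by opsins, which signal through phospholipase C and are switched off by arrestins. Male spiders usually carry fewer X chromosomes than females. Genes are named here by their best match in another species, mostly Drosophila melanogaster, and the roles given are those known from that species unless another is named.

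The immature female libraries held 11575912 and 9113481 reads on genes and the immature male libraries 5014354, 5916540 and 8647455. Of 25922 genes with reads, 24930 passed the filter on low counts. Values are given in CPM, the reads of a gene relative to the library total after TMM scaling, and fold changes as male against female. Across genes and among the immature libraries, log2 CPM of immature male 2 correlated most with immature female 3 (Pearson r = 0.921) and less with immature males 1 (0.839) and 3 (0.83), while immature males 1 and 3 correlated with each other at 0.914. Immature male 2 was thus nearer to 1 of the immature females than to the other immature males, and as near to mature male 3 (0.921), which is a description over genes and not a test. Defining markers were matched for 9 of 10 neuronal, 3 of 3 glial and 8 of 10 muscle genes, and each matched marker had reads in all 5 immature libraries.

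By edgeR's quasi-likelihood test with Benjamini-Hochberg adjustment over all genes, 8 genes (0.0321%) differed between immature males and females. Of these, 6 were higher in males (0.0241% of genes tested) and 2 were lower (0.00802%). An unadjusted p under 0.05 was found for 801 genes higher in males (3.21%) and 698 lower (2.8%). The likelihood ratio test of edgeR, which is less strict with few replicates, passed 64 genes higher in males (0.257%) and 77 lower (0.309%), and all 8 genes were among them. In the text, a gene is said to be called when the quasi-likelihood test passed it, and to have passed the likelihood ratio test otherwise.

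Of the 8 called genes, 7 had no match to a known protein and differed between the sexes at both stages, while the other matched an arrestin. The clearest was Gene002150, a coding sequence at nucleotides 2 to 481 of Contig12843 in the authors' consensus assembly. It was at 19.4, 20.5 and 15.2 CPM in immature males and at 0.0780 and 0.109 CPM in immature females, with 1 read in each. The sexes were far apart with no intermediate library. The ratio of male to female was 197, with an exact 95% counting interval from 54.0 to 1629, and the adjusted p of the quasi-likelihood test of edgeR was 0.00195. Gene002151 is predicted from the other strand at nucleotides 1 to 480 of that contig, and the coding sequences overlap almost entirely. It was at 16.8, 17.2 and 13.2 CPM in males and at 0.156 and 0.109 CPM in females (adjusted p = 0.0489 by the same test). Since the use of strand in the counting is not stated, the reads of these 2 genes cannot be told apart.

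Gene001739 was at 53.5, 56.6 and 42.9 CPM in immature males and at 2.58 and 2.08 CPM in immature females. The log2 fold change came to 4.44 (SE 0.37, adjusted p = 0.00797 by edgeR's quasi-likelihood test), and unlike Gene002150 it was clearly read in females as well. The SE given with fold changes was derived from the F statistic and is unreliable where a group has almost no reads. Gene001740, at nucleotides 3658 to 4173 of Contig12248, was at 10.3, 12.5 and 12.6 CPM in males and 0.624 and 0.437 CPM in females, a log2 fold change of 4.42 (SE 0.43). Its neighbour on the contig, Gene001741, was named after its values were seen. It had 0 reads in both immature females and in all 3 mature females, and 2.17, 3.51 and 2.22 CPM in immature males. The coding sequences of these neighbours do not overlap, and both followed the sex of the spider.

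Gene005439, on Contig18685, was at 7.51, 7.35 and 9.00 CPM in immature males and at 0.312 and 0.219 CPM in immature females (log2 fold change 4.81, SE 0.45, adjusted p = 0.0105 by edgeR's quasi-likelihood test). Gene005440, predicted from the other strand over nearly the same nucleotides, was at 6.07 to 7.90 CPM in males and 0.328 to 0.468 CPM in females, and passed the likelihood ratio test only, and reads of these genes cannot be told apart. Gene003610, at nucleotides 3 to 695 of Contig15361, was at 17.6, 17.9 and 16.6 CPM in males against 0.312 and 0 CPM in females, where it had 4 reads in all. Its fitted log2 fold change was 6.52 (adjusted p = 0.0489 by the same test) and rests on those few reads. Gene005524, named after its values were seen, was at 50.0 to 53.1 CPM in the 3 immature males and at 2.89 and 0.328 CPM in the females. In all of these genes the 3 males were close to each other, including immature male 2.

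In the female direction, Gene014563, at nucleotides 709 to 1068 of Contig3738, was at 22.6 and 20.8 CPM in immature females and 1.19, 1.17 and 1.64 CPM in immature males. On the log2 scale it was at -4.0 (SE 0.37, adjusted p = 0.0105 by edgeR's quasi-likelihood test). Among genes named after their values were seen, Gene010491 was at 9.68 and 13.2 CPM in the immature females and had 1 read in the 3 males together. Gene020668 was at 29.3 and 35.6 CPM in immature females and at 0 to 0.198 CPM in immature males, with 1.50, 73.8 and 18.5 CPM in the mature females. Gene010873 followed sex in all libraries but 1. It was at 172 to 204 CPM in the mature females and at 250 CPM in immature female 3, but at 2.11 CPM in immature female 2, near the 1.00 to 3.5 CPM of the immature males.

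The sex difference of the 7 unmatched genes was also seen in adult brains, which did not enter the immature contrast, and there the quasi-likelihood test called 10 genes (0.0401%, with 2.47% at an unadjusted p under 0.05). Gene002150 was at 15.8 and 17.9 CPM in the mature males and at 0 to 0.107 CPM in the mature females. Gene014563 was at 13.7 to 28.4 CPM in the mature females and at 1.40 and 1.48 CPM in the mature males. When each stage was fitted alone by the likelihood ratio test, 105 genes passed in immature and 63 in mature brains, and 13 were shared, all in the same direction. These are 12.4% of the immature and 20.6% of the mature genes. Of the 13, only Gene016420, a cuticle protein, had a match to a known protein. With only the 5 immature libraries in the fit, 0 genes passed the quasi-likelihood test of edgeR, while 1120 had an unadjusted p under 0.05.

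**Figure D1:**
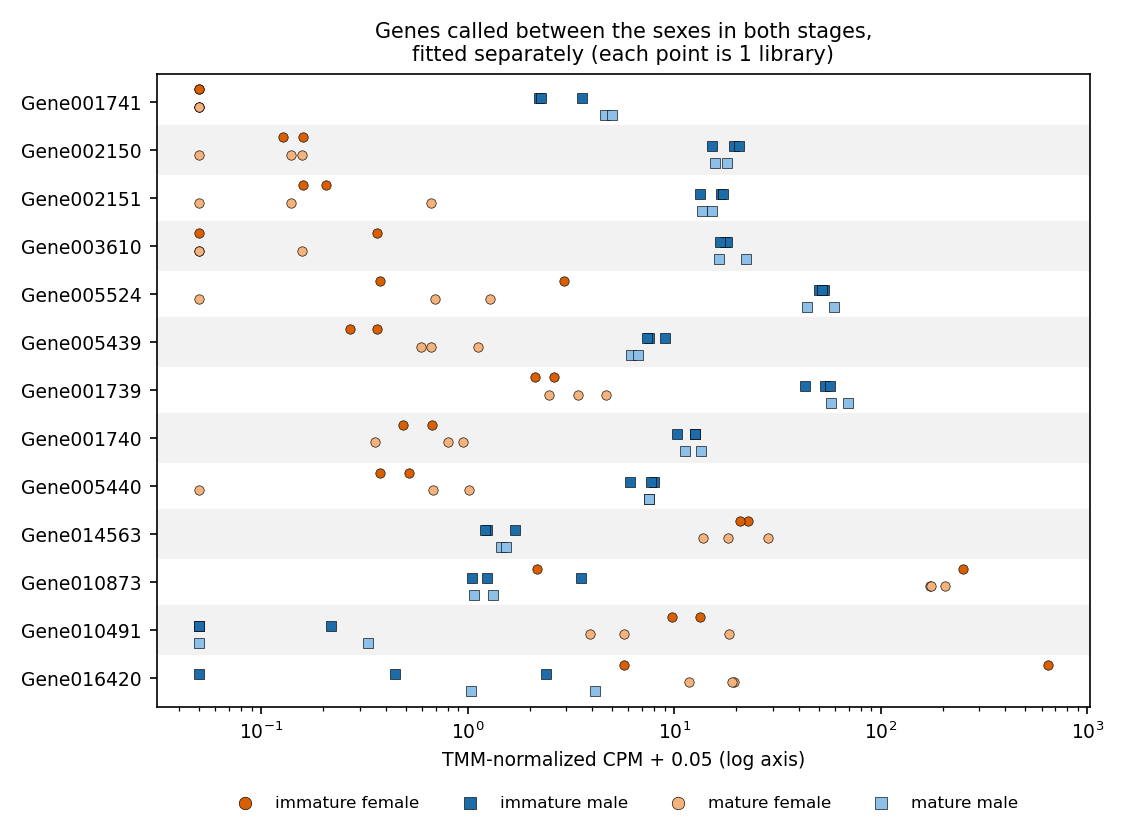
CPM in each of the 10 libraries (log axis, with 0.05 CPM added so that 0 can be drawn) of the 13 genes that passed the likelihood ratio test in both stages when each stage was fitted alone. Squares are males and circles females; in the upper 9 genes all males lie above all females, and the immature female at the left of the Gene010873 line is replicate 2.

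The other called gene, Gene016785, matched arrestin 2 (Arr2), with 68.42% identity to the lateral eye arrestin of another arthropod. It was at 172 and 212 CPM in the immature females and at 37.7, 34.1 and 17.8 CPM in the immature males. The log2 fold change was -2.69 (SE 0.33, adjusted p = 0.0489 by edgeR's quasi-likelihood test). In the mature libraries it was at 21.1 to 30.9 CPM in both sexes, so the 2 immature females stood above the other 8 libraries. Leaving out 1 library at a time lost the call in 9 of 10 fits, with log2 fold changes from -2.89 to -2.42.

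Arr2 was 1 of 20 tested genes with a match to the phototransduction pathway. Of these, 8 passed the likelihood ratio test and all 8 were lower in immature males, against 0.309% of all genes in that direction. The groups did not overlap in 13, all lower in males, against 7.6% of all genes tested. The median log2 fold change of the list was -2.34, beside 0.00 over all genes tested, and -0.31 in mature brains. Leaving out 1 library gave medians from -2.86 to -2.17 over the members tested in each fit. Over the same 20 members, leaving out an immature library gave medians from -2.79 to -2.13. The list took 0.178% and 0.271% of the counts in immature females and 0.102%, 0.105% and 0.0936% in immature males. Members on the same contig share a source, and the 20 genes lay on 17 contigs.

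Opsins, the light receptors, gave 8 members. Gene004564, nearest to Rh6 and to an ocellar opsin, was the most highly read, at 621 and 968 CPM in immature females and 204, 109 and 87.4 CPM in immature males. The log2 fold change was -2.57 (SE 0.51, adjusted p = 0.00391 by the likelihood ratio test of edgeR, 0.549 by the quasi-likelihood test). Gene001810, nearest to ninaE, was at 131 and 238 CPM in females and 42.3, 20.2 and 21.3 CPM in males, with -2.73 (SE 0.46). Gene010966, another ocellar opsin match, is predicted from the other strand wholly inside Gene004564, so their reads cannot be told apart. It was at 17.2 and 27.2 CPM in females and at 1.78 to 2.01 CPM in males, with -3.55 (SE 0.66). All 3 passed the likelihood ratio test and the sexes did not overlap. The remaining opsins did not pass either test. Gene021013, also matching ninaE, was at 22.9 and 90.5 CPM in females and at 4.54 to 17.8 CPM in males, and those matching Rh3 (Gene021872, Gene020645), Rh4 (Gene021873) and peropsin (Gene022300) were below 7 CPM in every immature library.

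Arrestins, which quench the activated opsin, gave 2 members, and both passed the likelihood ratio test. Beside Arr2, Gene021628, nearest to Arr1, was at 28.3 and 62.2 CPM in immature females and 13.2, 7.18 and 8.76 CPM in immature males (log2 fold change -2.22, SE 0.39). Class III myosin, named ninaC in the fly and found in photoreceptors, matched 3 members, of which Gene000030 and Gene023062 passed the likelihood ratio test. Gene000030 was at 4.37 and 8.42 CPM in females and 1.19, 0 and 0.117 CPM in males, a log2 fold change of -3.99 (SE 0.91). Phospholipase C of the visual cascade, norpA, matched 3 members. Gene022981 was at 2.58 and 6.34 CPM in females and 0.395 to 0.701 CPM in males and passed the likelihood ratio test. The more highly read norpA match, Gene000485, was at 368 and 666 CPM in females and 426 to 539 CPM in males (log2 fold change -0.06). The scaffold inaD, which holds the fly cascade together, and the protein kinase C inaC had log2 fold changes between -0.35 and 0.05 in 4 members. By role, the median log2 fold change was -2.37 for opsins, -2.45 for arrestins, -3.99 for myosin III, -0.55 for phospholipase C and -0.03 for the scaffold.

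In all 8 members that passed the likelihood ratio test, every mature library lay below both immature females. Over all 20 tested members this held in 9. The 8 were picked by their immature values, which favours such a pattern, and the share over all genes was not computed. Gene021952 was a separate match outside the list (transient receptor potential-gamma, a cation channel) and was named after its values were seen. It was at 6.48 and 7.65 CPM in immature females and at 0.668 to 1.05 CPM in immature males, and passed the same test. Other matches of its channel family are not given, so it adds no support to the result of the list. In bulk tissue, fewer photoreceptor cells and less RNA per cell cannot be told apart. How much eye tissue stayed on each dissected brain is not stated, and its part in the result was not tested.

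**Figure D2:**
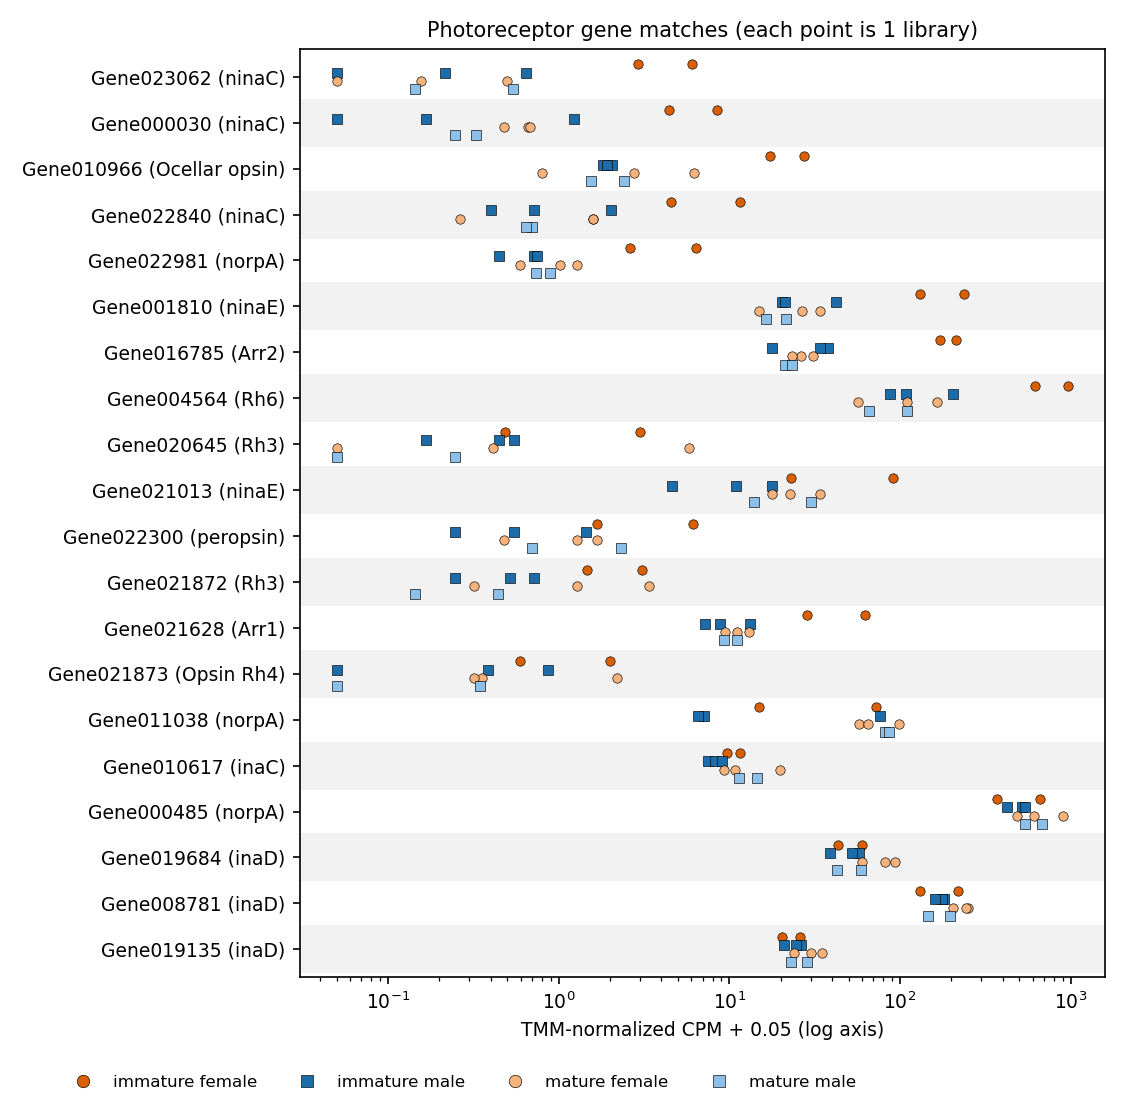
CPM in each of the 10 libraries (log axis, with 0.05 CPM added) of the 20 tested genes matching the phototransduction pathway, ordered by the immature log2 fold change, with the best match in brackets. The 2 immature females (dark circles) stand to the right of the other 8 libraries for Arr2, Arr1, Rh6 and ninaC, whereas the inaD matches at the bottom show no such gap.

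Genes with a CRAL-TRIO domain, which carries small lipids such as retinoids and tocopherol, gave the matched genes with the lowest adjusted p in the male direction. Gene004567, matching an alpha-tocopherol transfer protein, was at 38.1, 18.4 and 48.0 CPM in immature males and 1.56 and 1.64 CPM in immature females. The log2 fold change was 4.43 (SE 0.65, adjusted p = 2.62e-06 by the likelihood ratio test of edgeR and 0.187 by the quasi-likelihood test). Gene013816, of the same kind, was at 16.2, 7.18 and 14.5 CPM in males and 0.937 and 2.08 CPM in females, with 3.07 (SE 0.51). Gene025410 had 1 read in the females together and 1.78, 1.50 and 1.52 CPM in males, a ratio of 34.7 with an exact 95% interval from 5.79 to 1415. All 3 males were above both females in each gene. Of 50 members tested, 4 passed the likelihood ratio test, all higher in males, against 0.257% of all genes. The median of the list was -0.09, with 21 members above 0 and 29 below. In each of the 3 genes both immature females lay below every mature library. The mature sexes had log2 fold changes of 1.43, 1.54 and 1.60 in the same direction, without passing either test, and Gene013816 was at 5.05 to 6.0 CPM in mature females and 12.3 and 19.9 CPM in mature males.

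Similar low values in the immature females were seen in 2 enzymes. Gene005396, matching a fatty acyl-CoA reductase, which makes fatty alcohols for waxes, was at 124, 53.6 and 107 CPM in immature males and 12.6 and 10.9 CPM in immature females (log2 fold change 3.01, SE 0.57). It was at 37.4 to 143 CPM in the mature libraries. Gene005576, matching the hydrolase ABHD11, was at 268, 249 and 197 CPM in males and 12.5 and 53.5 CPM in females, with 2.85 (SE 0.61). Both passed the likelihood ratio test and neither was called. Among all 64 genes that passed it in the male direction, 25 had every mature library above both immature females. In 13 of the 64 every mature library lay below all immature males. The 64 were picked by their immature values and the share over all genes was not computed, so these counts only describe them.

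The cuticle list, with structural proteins of the exoskeleton, had the most positive median of the 24 lists, 2.65 on the log2 scale in immature brains beside -0.04 in mature ones. With the 7 members without reads in a group set at their bound, the median was 2.24. Of 142 members tested, 4 passed the likelihood ratio test higher in males (2.82%, beside 0.257% of all genes) and 1 lower (0.704%, beside 0.309%). An unadjusted p under 0.05 in the male direction was found for 43 (30.3%, beside 3.21%). The 142 members lay on 109 contigs, and 79 had a coding sequence that overlaps another. Members that share a contig or reads are not independent, so these counts can repeat the same signal. The median over members of log2 CPM, with 0.5 CPM added, was -0.45 and 0.34 in immature females 2 and 3. In immature males 1, 2 and 3 it was 2.33, 0.74 and -0.05, so the typical member was low in all but immature male 1. The groups did not overlap in 15 members higher in males (10.6%, beside 7.4% of all genes tested). The list took 1.17% of the counts of immature male 1 but 0.259% and 0.0619% of immature males 2 and 3, against 0.0950% and 0.258% in the females, so by share the sexes overlapped. The mature libraries ranged from 0.191% to 1.13%. Without immature male 1 the median was 0.93. Without immature female 3 it was 5.44 over the members tested in that fit, and 5.12 over the same 142.

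Single cuticle genes showed the same dependence on individual spiders. Gene024349 (cuticle protein 10.9) was at 13, 0.167 and 2.92 CPM in males and had 0 reads in females, which makes it at least 34.3-fold higher in males with a floor of 3 reads over the females. Gene023579 (cuticle protein 16.8) was at 130, 0.501 and 27.6 CPM in males and 0.390 and 0.328 CPM in females. In both, immature male 2 was near the females. In the opposite direction, Gene016420 (Cpr100A) was at 643 and 5.69 CPM in females and 0.395, 2.34 and 0 CPM in males, so that 1 female carried nearly all of its reads.

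Other genes of the male direction had the same shape, high in immature males 1 and 3 and low in immature male 2. Gene001529, Gene001531 and Gene001530 lie on one contig, with overlapping coding sequences, and match chorion peroxidase and peroxidasin, enzymes that crosslink extracellular proteins. Gene001529 was at 213, 5.01 and 52.6 CPM in males and 2.26 and 1.31 CPM in females. Gene001531 and Gene001530 were at 10.1 and 11.5 CPM in immature male 1 but 0.334 CPM each in immature male 2. Gene023609 (proclotting enzyme, a serine protease) was at 45.8, 0.167 and 55.0 CPM in males with 0 reads in females, at least 263-fold higher. Gene005977, an oxidoreductase match, was at 32.0, 0.668 and 23.4 CPM in males and at 0.312 and 0.328 CPM in females. Gene005999, matching Cyp18a1, which inactivates ecdysteroids, was at 32.4, 0.501 and 20.6 CPM in males and 0.312 and 0.109 CPM in females. Immature male 2 was thus at or near the level of the females in these genes, and the means of the males came from the other two spiders.

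The summed share of nuclear receptors and other ecdysone response genes overlapped between the sexes. The list took 0.202% of the counts in immature female 2, 0.168% in immature male 1 and 0.210% in immature male 3, but 0.0816% in immature female 3 and 0.0714% in immature male 2. The mature libraries were at 0.0595% to 0.0729%. Single members did not all follow this sum, since 7 were highest in immature male 2 and 5 in immature female 3. Of 28 members, 0 passed the likelihood ratio test, 6 were lower in males without overlap (21.4%, beside 7.6% of all genes) and 2 higher (7.14%, beside 7.4%). By the quasi-likelihood test 4 were lower at an unadjusted p under 0.05 (14.3%, beside 2.8%) and 1 higher (3.57%, beside 3.21%). The median log2 fold change was -0.17, and -0.51 without immature male 2. Gene001858, matching the early-late ecdysone receptor target Hr3, was at 38.5, 8.69 and 39.9 CPM in males and 6.95 and 6.01 CPM in females (log2 fold change 2.16, adjusted p = 0.0857 by the likelihood ratio test of edgeR). Gene001811, matching Hr4, was at 505, 1.34 and 668 CPM in males and at 143 and 1.42 CPM in females. Lower in males on average were Gene016899 (Eip74EF), at 18.5 and 53.9 CPM in females and 8.10 to 14.7 CPM in males, and Gene009352 (Hr39), at 56.2 and 47.7 CPM in females and 24.9 to 36.4 CPM in males. The receptor subunits themselves, Gene017234 (EcR) and Gene018956 (usp), had log2 fold changes of -0.85 and -1.06 without passing either test. Since the time to the molt was not known, molting stage and sex cannot be told apart in the genes that these spiders carried unequally.

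Among extracellular matrix genes, the collagens Gene018666 and Gene012278 followed the same spiders among the males. Gene018666, a collagen (nearest fly gene Col4a1), was at 8737, 740 and 6988 CPM in males and 1516 and 540 CPM in females, below the 9594 to 20650 CPM of the mature libraries. Gene012278, another collagen, was at 609, 74.4 and 299.9 CPM in males and 77.7 and 44.7 CPM in females. Gene015806, matching the cadherin fat (ft), was at 34.3 and 7.33 CPM in females and 5.49 to 7.35 CPM in males. None of the 52 members passed the likelihood ratio test, and the list median was 0.18, and 0.47 without immature female 3. The typical member differed little between libraries. Its median log2 CPM, with 0.5 CPM added, was 3.55 and 3.39 in immature females 2 and 3. In immature males 1, 2 and 3 it was 3.58, 3.23 and 3.64.

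**Figure D3:**
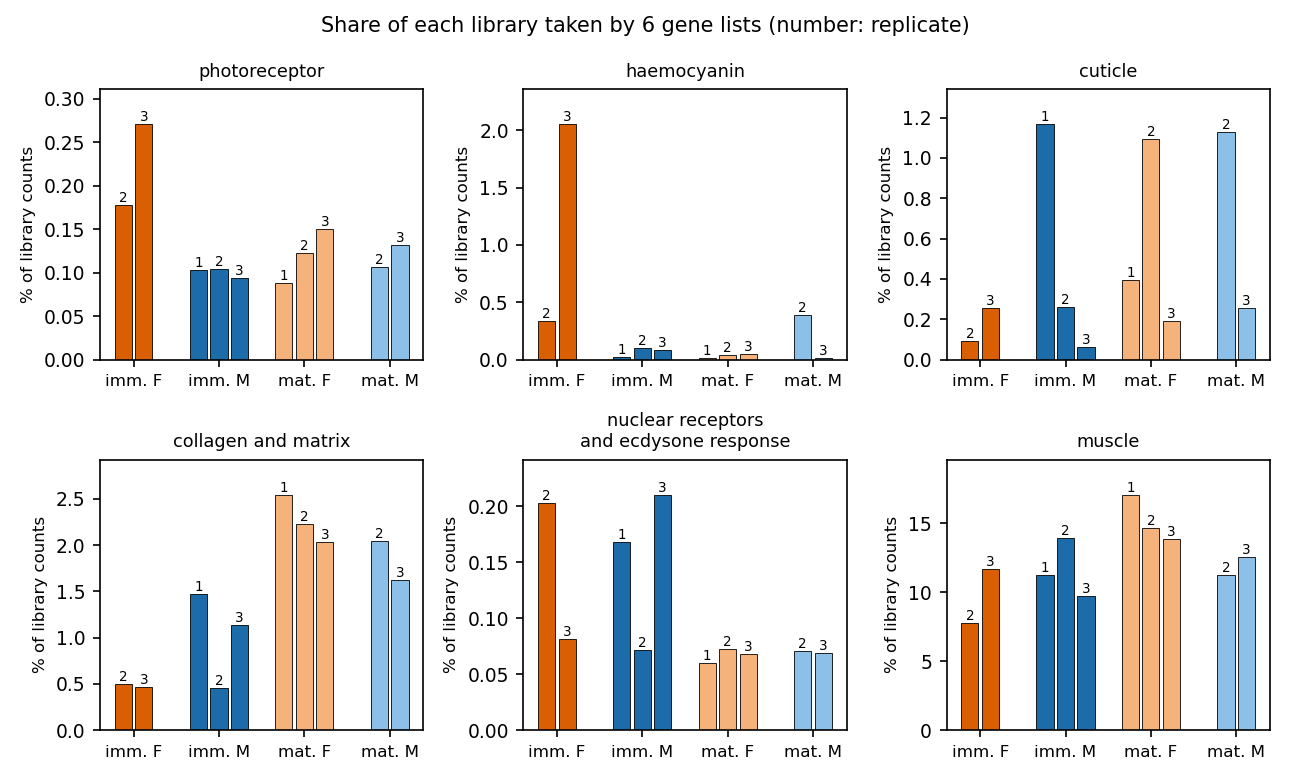
Share of all counts (percent, axes starting at 0) taken in each library by 6 gene lists, with the replicate number above each bar and F and M for females and males. Photoreceptor genes are highest in the 2 immature females, haemocyanin in immature female 3 and cuticle in immature male 1, while the nuclear receptor list is high in immature female 2 and immature males 1 and 3 and low in the other 7 libraries.

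Haemocyanin, the copper protein that carries oxygen in spider haemolymph, had the most negative median of all lists, -4.40, beside 2.51 in mature brains, where mature male 2 carried the difference with 0.390% of its counts against 0.0122% to 0.0458% in the other 4 mature libraries. Of 18 members, 3 passed the likelihood ratio test, all lower in males (16.7%, beside 0.309% of all genes), and in 16 the groups did not overlap (88.9%, beside 7.6% of all genes tested). Gene019903 was at 27 and 165 CPM in females and 0.790, 3.51 and 2.80 CPM in males (log2 fold change -5.31, SE 1.40). Gene024530 was at 11.8 and 77.4 CPM in females and 0.395 to 2.22 CPM in males, with -4.75 (SE 1.29). Gene001318, nearest to chain F, had 1 read in the males together and 0.859 and 1.42 CPM in females. All 18 members were highest in immature female 3, and in the 16 its level was 1.66 to 13.2 times that of immature female 2. The list took 2.05% of the counts of immature female 3, 0.335% of immature female 2 and 0.0198% to 0.09996% of the immature males. Without immature female 3 the median was -2.76. How reads that match several chains were counted is not stated. Haemocyanin is not a neuronal product, and the part of haemolymph or blood cells in these samples was not tested.

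Genes of DNA replication and cell division had fold changes below 0 in 32 of 39 members. None passed the likelihood ratio test, but the groups did not overlap in 20 members lower in males (51.3%, beside 7.6%) and in 1 higher. The median log2 fold change was -0.78 in immature and -0.08 in mature brains. Gene021851 and Gene020226, both matching the replication licensing factor Mcm2, were at 4.92 and 5.25 CPM and at 11.1 and 11.2 CPM in females, against 1.75 to 2.67 CPM and 3.56 to 6.31 CPM in males. Gene022813 (CycA, a mitotic cyclin) was at 2.89 and 2.08 CPM in females and 0.593 to 1.29 CPM in males. PCNA, the clamp of the replication fork (Gene017260), was at 48.2 and 44.3 CPM in females and 15 to 33.9 CPM in males. Their adjusted p was between 0.669 and 0.804 by the quasi-likelihood test of edgeR. Immature female 2 had the highest value in 28 of the 39 members, and without it the median was -0.30.

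Several lists of secreted proteins also had negative medians. Of 56 genes matching venom components, 2 passed the likelihood ratio test, both lower in males (3.57%, beside 0.309% of all genes), 17 did not overlap, all lower (30.4%, beside 7.6%), and the median was -1.15. Immature female 3 was highest in 31 of the 56, and without it the median was -0.38. Gene024915, matching a ctenitoxin with a thyroglobulin domain, was at 36.1 and 16.5 CPM in females and 3.36, 5.18 and 4.44 CPM in males. Gene023270, another ctenitoxin match, had 0 reads in males and 0.468 and 4.48 CPM in females, and Gene017111 (plancitoxin, a DNase) was at 57.2 and 53.4 CPM in females and 28.5 to 38.4 CPM in males. A match to a toxin does not show that the gene encodes one in this spider. Serpins, which inhibit proteases, gave 7 of 23 members lower in males without overlap (30.4%, beside 7.6%) and a median of -0.87, which was -0.25 without immature female 3 and -0.54 without immature female 2. Of these, Gene005568 was at 59.9 and 88.3 CPM in females and 18.9 to 44.9 CPM in males and Gene009907 was at 68.1 and 94.2 CPM in females and 32.1 to 52.7 CPM in males. Gene022340 was at 84.3 CPM in immature female 2 and at 0.437 to 5.49 CPM in the other 4 libraries.

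Astacins, serine proteases and clotting enzymes were uneven between individuals. Astacins, zinc metalloproteases, had a median of -1.45 over 15 tested members. Without immature female 2 it became 0.40 over the members tested in that fit, and 0.96 over the same 15. In that library Gene024238 was at 99.0 CPM, against 2.52 to 9.88 CPM in the other immature libraries. Gene022976 and Gene023058, both matching an astacin-like metalloprotease toxin, were highest in immature female 3. The median of 61 serine proteases was -0.46, and 0.16 without immature female 2. Gene025662, a chymotrypsin-like protease, was at 22.8 CPM in immature female 2, 0 in immature female 3 and 0.117 to 0.198 CPM in the males, and passed the likelihood ratio test. It was also read in the mature males, at 66.6 and 226 CPM, and without immature female 2 its immature log2 fold change was 3.44. Gene023663 (stubble) was at 12.6, 0.835 and 39.7 CPM in males. Clotting and phenoloxidase-activating enzymes had a median of -0.51. Of 56, 14 were lower in males without overlap (25.0%, beside 7.6% of all genes) and 2 higher (3.57%, beside 7.4%). Without immature female 3 that median was -0.13, and without immature male 2 it was -0.83. The only member of this list that passed the likelihood ratio test was higher in males (1.79%, beside 0.257% of all genes). It was the proclotting enzyme match Gene023609 given above, also on the serine protease list. Gene000116, matching techylectin-5A of horseshoe crabs, was at 6.32 and 11.7 CPM in females and 1.98 to 4.01 CPM in males. Gene000004, matching clotting factor B, was at 16.9 and 27.6 CPM in females and 6.68 to 10.3 CPM in males.

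Chitin-binding and gut lining genes gave 1 gene of 52 that passed the likelihood ratio test higher in males (1.92%, beside 0.257% of all genes) and 2 lower (3.85%, beside 0.309%). The median was 0.62, and 1.85 without immature female 3. Gene022667, with a chitin-binding domain, was at 6.17 and 6.01 CPM in females and 0.395, 0.835 and 0.350 CPM in males, close within each sex (log2 fold change -3.52, SE 0.49, adjusted p = 1.05e-06 by the likelihood ratio test and 0.124 by the quasi-likelihood test of edgeR). Gene022354 (chitinase Cht5, which digests old cuticle) was at 723 CPM in immature female 2 and at 0.593 to 1.64 CPM in the other 4 immature libraries, and without immature female 2 its log2 fold change was 0.057. Gene001410 was at 157, 10.2 and 45.6 CPM in males and 0.937 and 1.20 CPM in females. Only the first of these was alike in both females and in all males.

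Further matched genes lower in immature males came from no single list. Gene005230 (CG3556, a cobalamin-binding match) was at 302 and 176 CPM in females and 35.2, 60.0 and 70.4 CPM in males, a log2 fold change of -2.11 (SE 0.37). Gene019879, matching an ADAMTS metalloprotease, was at 56.1 and 11.7 CPM in females and 0.935 to 4.85 CPM in males. Gene023097, nearest to NELL2, was at 2.81 and 13 CPM in females and 0 to 0.668 CPM in males. All 3 passed the likelihood ratio test with non-overlapping groups. Yolk and lipid transport genes, of which 2 matched vitellogenin, were highest in different libraries. Gene000638 was at 24.0 and 159 CPM in females and 5.53, 28.6 and 4.44 CPM in males, and Gene014507 was at 1.56 and 10.9 CPM in females and 2.45 to 14.7 CPM in males.

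No marker of the cells a brain is made of passed either edgeR test. The median log2 fold change was 0.06 in the neuronal list of 47 genes, and from -0.24 without immature female 2 to 0.49 without immature female 3. The 3 members with the lowest p all matched the calcium channel cacophony (cac), with log2 fold changes of 0.94 (Gene007245), 0.63 (Gene010465) and 0.47 (Gene006987). The glial list of 11 genes had a median of 0.29 (0.05 without immature male 1), and its leading members were 3 GABA transporters (Gat) with 0.59 (Gene006108), 0.54 (Gene003674) and 0.31 (Gene003649). Muscle genes had a median of 0.20 over 47 members (-0.14 without immature female 2 and 0.69 without immature female 3) and took 7.74% and 11.7% of the counts in females and 11.2%, 13.9% and 9.69% in males. Muscle myosin heavy chain (Gene017604) was at 16580 and 22680 CPM in females and 29690, 40030 and 26600 CPM in males, at 0.71 on the log2 scale (SE 0.31), while Gene019771 (Strn-Mlck) had -1.59 and Gene013170 (bt) 1.19. The adjusted p of the members named was at least 0.775 by the quasi-likelihood test of edgeR.

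None of the matches to genes known for sex determination and dosage compensation in the fly passed either test. The median over 6 sex determination genes was 0.12 on the log2 scale, with 0.51 for Gene018388 (a doublesex relative, dmrt99B), at 2.42 and 1.86 CPM in females and 3.95, 2.01 and 3.27 CPM in males. Gene010568 (tra2) had 0.23 and Gene014059, with Sxl as the nearest fly gene, 0.18. The Swiss-Prot match of Gene014059 was a different RNA-binding protein, with a CCHC zinc finger, so it is not shown to be the Sxl of this spider. The 7 dosage compensation genes had a median of -0.10 (-0.26 without immature male 2). Among them Gene018915, matching the histone acetyltransferase mof, was at 12.3 and 11.3 CPM in females and 6.52, 9.86 and 4.44 CPM in males (log2 fold change -0.77, SE 0.35, adjusted p = 0.854 by the quasi-likelihood test of edgeR), and msl-1 (Gene009298) and msl-3 (Gene023888) each had -0.33.

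No member of the peptide hormone and receptor list or of the biogenic amine list passed either test. The 40 peptide hormones and receptors had a median of -0.05. Among them, the lowest p belonged to Gene000832, at 0.58 on the log2 scale (SE 0.26). Its nearest fly gene was the insulin receptor InR, but its Swiss-Prot match was another kinase, LMTK2, so its identity is uncertain. Next were an insulin-like peptide near Ilp5 (Gene000179) with -2.05 (SE 1.03) and a receptor near sNPF-R (Gene012884) with 1.08 (SE 0.65). Of 38 genes for biogenic amines, with a median of -0.13, Gene016544 and Gene018349 matched histidine decarboxylase, which makes the photoreceptor transmitter histamine. Gene018349 had 3 reads in the males together and 0.468 and 1.09 CPM in females, a ratio of female to male of 4.76 with an exact 95% interval from 1.36 to 25.5. Gene016544 had a log2 fold change of -1.66 (SE 0.90) and the octopamine receptor match Gene019246 one of -0.99 (SE 0.53). Without immature female 3 the medians of these lists were 0.36 and 0.45, and without immature female 2 they were -0.36 and -0.48.

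Housekeeping and stress lists varied between spiders within each sex. Ribosomal protein genes took 2.53%, 2.25% and 2.52% of the counts in immature female 2 and immature males 1 and 3, but 1.33% and 1.05% in immature female 3 and immature male 2, and their median was 0.09, from -0.25 without immature female 3 to 0.50 without immature female 2. The members with the lowest p were RpLP1 (Gene018914, 0.70), RpL8 (Gene018834, 0.37) and RpL32 (Gene009592, 0.27). Among heat shock genes, with a median of -0.07 (0.22 without immature female 2), the 3 leading members all matched the small heat shock protein l(2)efl, at 3.11 (Gene001856), -1.14 (Gene015740) and 3.19 (Gene023682). Cytochrome P450 genes had a median of -0.20, which was 1.03 without immature female 3 and -1.32 without immature male 2, and 1 of 73 members past the likelihood ratio test, the Cyp18a1 match above. Gene023403 was at 7.90, 0.835 and 0.467 CPM in males with 1 read in females, and Gene021431 had a log2 fold change of -2.32 (SE 0.81).

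**Figure D4:**
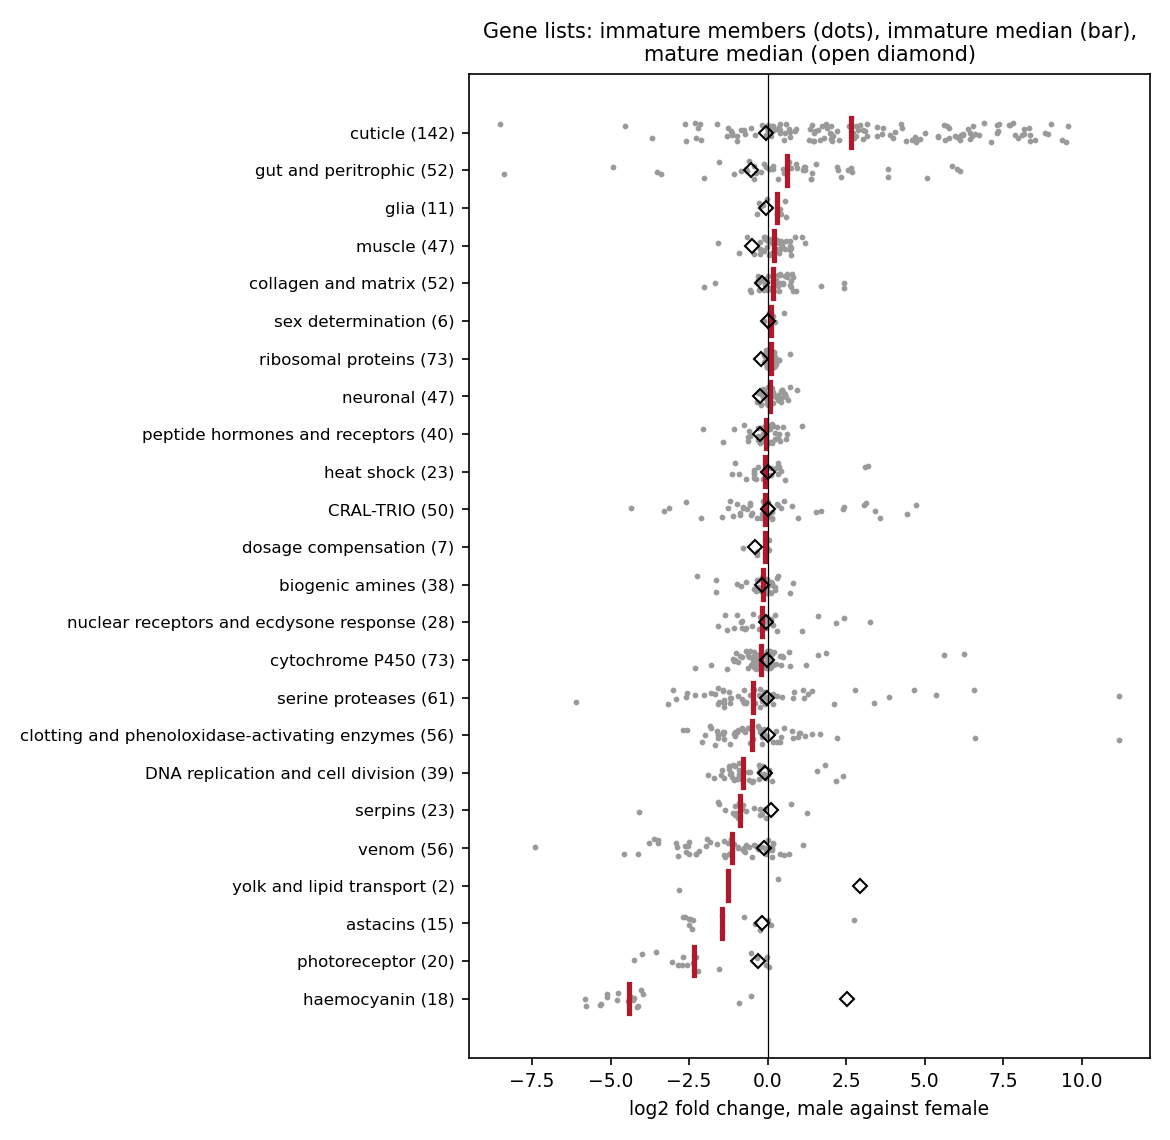
Log2 fold changes of immature males against immature females for each tested member (dots) of 24 gene lists, with the number tested in brackets, the immature median as a bar and the mature median as an open diamond. The immature medians run from -4.40 for haemocyanin to 2.65 for cuticle, and the neuronal, sex determination and dosage compensation lists lie near 0.

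The 141 genes that passed the likelihood ratio test fell into groups by which spiders carried the difference. Of the 64 higher in males, all 3 males were at 2 times the highest female or more in 41, and all but immature male 2 in another 22. Immature male 1 had the highest value in 40 and immature male 2 in 8. Of the 77 lower in males, both females were at least 2 times the highest male in 49, only immature female 2 in 24 and only immature female 3 in 4. In 39 of the 77, all 5 mature libraries lay below both immature females, and in 16 they lay above all immature males. The 77 were picked by their immature values and the share over all genes was not computed, so these counts only describe them. The largest reads of a single spider included Gene022111 and Gene023655, unmatched and named after their values were seen, at 2056 and 1052 CPM in immature female 2 and at no more than 22.2 CPM in any other library.

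Many of the genes higher in males are of unknown identity. Without a Swiss-Prot match were 65.6% of the 64 genes higher in males and 41.6% of the 77 lower, beside 38.3% of all genes tested. A signal peptide was predicted for 25.0% and 19.5%, beside 7.36% of all genes. Coding sequences assembled from a single immature female library represented 28 of the 77 genes lower in males (36.4%, beside 7.74% of all genes tested) and 0 of the 64 higher, and those from a single immature male library represented 20 of the 64 (31.2%, beside 7.94%) and 3 of the 77. The part of the assembly in the number of calls was not tested.

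Whether the sex difference itself changed with stage was tested as an interaction of sex and stage. It passed 0 genes by the quasi-likelihood test of edgeR, where 798 (3.2%) had an unadjusted p below 0.05. The likelihood ratio test passed 14 (0.0562%), and DESeq2 passed 31. The 3 matched genes with the lowest p were not sex-different in immature brains by either edgeR test. Gene013935 and Gene013936, trypsin-like proteases, were at 0 to 0.395 CPM and 0 to 0.702 CPM in the 5 immature libraries and at 150 and 276 CPM and 78.0 and 180 CPM in the mature males. Gene016953, a jockey-like reverse transcriptase, was at 0.624 and 0.437 CPM in immature females and 1.58, 2.84 and 1.87 CPM in immature males, but at 6.32 to 11.1 CPM in mature females and 1.21 and 2.46 CPM in mature males. For Arr2 (Gene016785) the adjusted p of the interaction was 1.00 by the quasi-likelihood test, so its sex difference is not shown to be particular to immature brains. Of the genes named, Gene022667, Gene025662 and the haemocyanins Gene019903 and Gene024530 were among the 14 of the likelihood ratio test.

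The number of genes that differed depended on single spiders. Without immature male 2, the quasi-likelihood test called 135 genes, 116 of them higher in males, and the likelihood ratio test passed 707. Without immature female 3 these counts were 23 and 335, with 21 and 290 lower in males. Without immature male 1 or immature male 3 the quasi-likelihood test called 2 genes, and the likelihood ratio test passed 54 and 55, beside 92 without immature female 2. Libraries outside the contrast, which enter through the shared filter, scaling and estimate of spread, moved the count of the quasi-likelihood test to 2 without mature male 3 and to 5 without mature male 2 or mature female 3. Gene002150 was called in all 10 fits, Gene001739 in 9, Gene014563 in 7 and Arr2 in 1.

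**Figure D5:**
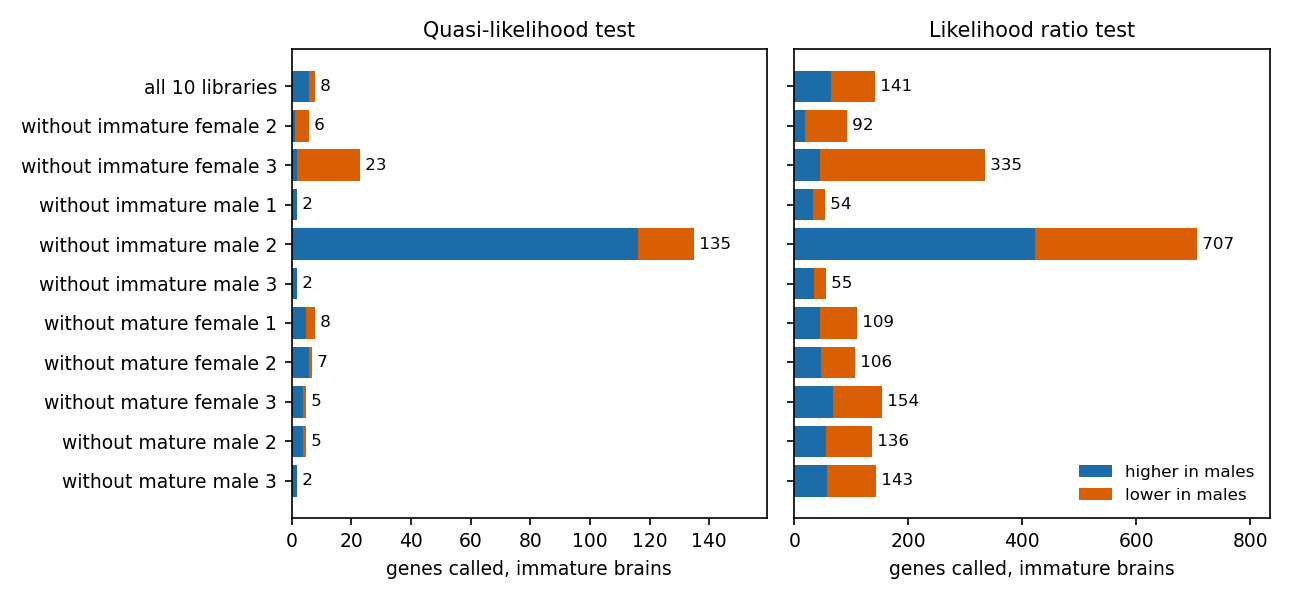
Number of genes called between immature males and females with all 10 libraries and with each library left out in turn, by the quasi-likelihood test (left) and the likelihood ratio test (right), split by direction. Leaving out immature male 2 gives the longest bars, 135 and 707 genes, mostly higher in males.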

How the data were processed

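Per the labels and the paper's methods, the authors trimmed reads with Trimmomatic 0.32, assembled each library with Trinity and CAP3, joined the assemblies, predicted coding sequences, grouped them into genes and aligned reads with BWA 0.6.1-r104. They deposited raw counts per gene and library, not normalized, from 3481348 to 11789754 per library, and an annotation in the other file. The handling of strand, mates and reads on several genes is not given in the sources used here. The annotation was displaced by 1 column in 14278 of 25943 genes and was put back in place. Of the tested genes, 31.97% have a coding sequence that overlaps another, so their counts are uncertain.

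Tests were run in R 4.3.3 using edgeR 4.0.16 and limma 3.58.1, after filterByExpr (minimum count 10) and TMM. One model with 4 group means was fitted to all 10 libraries, and the quasi-likelihood test with Benjamini-Hochberg adjustment at 0.05 was the main test. The likelihood ratio test, DESeq2 1.42.0, RLE size factors, 2 other filters, a replicate block, thinning to 3481348 reads, fits of 5 libraries and leaving out each library were alternatives. Leaving out libraries under the likelihood ratio test and in the count of non-overlapping groups, and the fits of 5 libraries by that test, were chosen after seeing the data. The fits were checked on simulated counts.

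The members and the 24 lists were chosen with earlier results of these data known. Lists were matched on names, symbols or Pfam domains, and are described by counts and medians without a test. Unless stated, a median with 1 library left out is over the members tested in that fit, which can differ from those of the main fit. Named genes were those called, the 10 per direction with the lowest adjusted p of the likelihood ratio test (non-overlapping groups, mean of at least 1 CPM in the higher group, a match), the 3 members per list with the lowest p, and 3 matched genes for the interaction. Others were named after their values were seen, including the genes given in the text as such, Gene001811, Gene017234, Gene018956, Gene017260 and photoreceptor members beyond the rule. A floor of 3 reads over the group stands in for 0, and intervals cover counting error only. The labels name separate spiders as replicates, 2 or 3 per group, which limits the precision. The 2 further libraries that the study sequenced were not analysed here.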

Additional observations from a re-analysis of the deposited data

Results flagged for a closer look

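Dixon's test at 5% was applied to 28 measures over the 5 immature libraries: the total, the TMM factor, other library values and the share of counts of each list. In 6 a library was further from the nearest other than the test allows. The chance rate of about 1 in 20 holds for independent, normally distributed values. These measures come from the same libraries of both sexes and most are shares of counts, so the 6 cannot be set against that rate. The TMM factor of immature female 2 was 1.11. The cuticle list took 1.17% of the counts in immature male 1. In immature female 2, serine proteases took 0.287% and astacins 0.314%. In immature female 3, yolk and lipid transport genes took 0.0170% and haemocyanin 2.05%. Of the 6, 3 fell on immature female 2, 2 on immature female 3 and 1 on immature male 1. Their causes were not tested.

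The summed share of the venom list separated the sexes in opposite directions at the 2 stages. The median log2 fold change of the list did not reverse, at -1.15 in immature and -0.12 in mature brains. Immature males were below immature females, by a difference in mean share of -0.0585 percentage points, with 0.0567% to 0.0952% in males and 0.129% and 0.143% in females. Mature males were above mature females, with 0.0928% and 0.123% against 0.0632% to 0.0915%. The difference between the stages was not tested.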

How the results depend on the processing

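With 2 females and 3 males, the count of genes was the least stable result. In immature brains the quasi-likelihood test called 8 genes, and the count was 141 by the likelihood ratio test, 234 by DESeq2 (148 higher in males), 5 with no filter or with a mean of at least 1 CPM, 2 after thinning and 0 with only the 5 immature libraries. Leaving out 1 library gave 2 to 135 calls (54 to 707 by the likelihood ratio test). The 3739 genes with non-overlapping groups became 5602 to 12250, a count that must grow when a library of the contrast is left out. In mature brains the count of 10 became 45 by the likelihood ratio test, 54 by DESeq2 and 6 after thinning, and 3 to 63 without 1 library. The interaction gave 0 calls, 14 by the likelihood ratio test, 31 by DESeq2, and 0 to 7 without 1 library. With the replicate block 0 genes were called in immature and 2 in mature brains. The labels do not say what a replicate number shares. Deviations from the group mean correlated at r = -0.361 and -0.281 between same-numbered immature spiders. With 2 females these deviations mirror each other (r = -1.0 between them), so the values cannot show whether same-numbered spiders share a source.

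For the 92 named genes, 908 fold changes without 1 library gave 838 with the same direction and call and 13 of another sign. These lay in 11 genes, whose values ran from -2.47 to 0.28 (Gene019771), -9.38 to 0.057 (Gene022354), -7.08 to 3.44 (Gene025662), -3.42 to 0.12 (Gene022976), -3.37 to 1.88 (Gene024238), -5.66 to 2.41 (Gene022340), -0.55 to 2.31 (Gene014507), -0.0075 to 0.48 (Gene010568), -0.070 to 0.63 (Gene009592), -0.34 to 4.35 (Gene013935) and -4.82 to 2.10 (Gene013936). Of 712 under the other settings, 622 had the same direction and call and 3 another sign, -0.58 for Gene014507 with the replicate block and -0.013 for Gene014059 and 0.29 for Gene023888 after thinning. For 11 of the 24 lists the median changed sign in some setting, but not for photoreceptor, haemocyanin, cuticle, venom, serpin or DNA replication genes. Counts under about 10 reads per library leave fold changes to the prior count.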
